A study of Homo sapiens with 16 samples.

Results

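The Kruppel-like factors (KLFs) followed here were KLF2, KLF3, KLF4, KLF5, KLF6, KLF9, KLF10, KLF11, KLF13 and KLF16, which are 10 of the 26364 genes in the count tables, taken by symbol. Poly(A) RNA was sequenced from 2 human cancer lines, Ishikawa from an endometrial adenocarcinoma and T-47D from a breast carcinoma. Both lines were held in phenol-red-free medium with charcoal-stripped serum, for 3 days in the labels and 5 days in the methods text, and then received 10 nM 17beta-estradiol (E2) for 0 (vehicle), 2, 4 or 8 h. With 4 time points and 2 libraries for each, every line contributed 8 of the 16 libraries. No source used here says whether the 2 libraries of a time point came from separate cultures, so every p-value measures only the spread between libraries, and each tissue is represented by 1 established line.

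KLF proteins share a carboxy-terminal DNA-binding domain of C2H2 zinc fingers that reads GC boxes and CACCC-type sequences, and they differ in their amino-terminal parts, which recruit activators or repressors. KLF9, KLF10, KLF11, KLF13 and KLF16 carry a SIN3-interaction domain and act mainly as repressors, and KLF3 represses through CtBP. KLF2, KLF4, KLF5 and KLF6 can activate transcription. KLF10 was first described as a TGF-beta-inducible early gene and is known to respond to estrogen in bone and breast cells, while KLF9 is known in endometrium as a partner of the progesterone receptor.

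The libraries held 41177912 to 58918642 counts in Ishikawa cells and 41223813 to 64148903 in T-47D cells. Defining markers followed the labels of the lines, with GATA3 at 1019.6 to 1228 CPM (counts scaled to library size) in T-47D libraries and at most 0.0888 CPM in Ishikawa libraries. PAX8 stood at 189 to 319 CPM in Ishikawa libraries and at most 0.0495 CPM in T-47D libraries. Of the 12 breast luminal markers, 10 were above a mean of 1 CPM in T-47D cells (ANKRD30A and SCGB2A2 were not), and 9 of the 10 endometrial markers were above it in Ishikawa cells (LHX1 was not). In the other line, 7 of the 12 breast markers and 4 of the 10 endometrial markers were above it as well. The endometrial markers summed higher in T-47D libraries, at 8651 to 11874 CPM against 2487 to 2981 CPM in Ishikawa libraries, through the keratins KRT8, KRT18 and KRT19, which both lists hold. In Ishikawa cells, both 4 h libraries were closest over all genes to 8 h replicate 1, and that library was closest to 4 h replicate 2. In T-47D cells, 2 h replicate 1 and 8 h replicate 2 were each closest to 4 h replicate 1. The labels were kept as given, and values with the Ishikawa 4 h and 8 h libraries as 1 group are given where they change a call.

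The promoters of the KLFs that moved within 2 h in Ishikawa cells are shown here because the KLFs bind GC boxes, which allows a look at how many such boxes their own promoters hold. RefSeq windows of 250 bases before the annotated start (GRCh38.p14) were searched for 8 of the 10 genes, in 10 windows. No window of KLF10 or KLF3 was searched, which does not mean that RefSeq lacks one. The GC box was searched as GGGCGG on both strands and is in capitals. At least 1 box was found in 8 of the 10 KLF windows and in 42.5% of all 34943 promoter windows of the same length. KLF13 at chr15:31326585-31326834 (plus strand), KLF4 at chr9:107489770-107490019 (minus strand) and KLF9 at chr9:70414658-70414907 (minus strand) belong to genes that rose at 2 h. KLF5 at chr13:73058755-73059004 (plus strand) and KLF6 at chr10:3785210-3785459 (minus strand) belong to genes that fell.
KLF13: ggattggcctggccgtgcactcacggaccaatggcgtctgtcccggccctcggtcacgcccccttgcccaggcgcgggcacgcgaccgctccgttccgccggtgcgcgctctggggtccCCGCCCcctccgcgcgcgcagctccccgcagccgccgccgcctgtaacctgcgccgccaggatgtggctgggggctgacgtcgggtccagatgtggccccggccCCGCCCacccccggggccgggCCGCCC
KLF4: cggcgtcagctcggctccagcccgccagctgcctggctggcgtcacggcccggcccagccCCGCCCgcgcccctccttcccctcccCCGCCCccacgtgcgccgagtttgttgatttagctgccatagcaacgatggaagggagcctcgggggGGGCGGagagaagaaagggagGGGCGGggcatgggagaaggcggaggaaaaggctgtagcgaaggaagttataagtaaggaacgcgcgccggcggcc
KLF9: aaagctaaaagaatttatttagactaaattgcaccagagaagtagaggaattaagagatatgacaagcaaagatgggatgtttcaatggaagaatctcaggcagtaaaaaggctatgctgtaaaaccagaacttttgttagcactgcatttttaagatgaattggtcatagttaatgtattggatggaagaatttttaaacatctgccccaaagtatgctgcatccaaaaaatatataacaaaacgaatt
KLF5: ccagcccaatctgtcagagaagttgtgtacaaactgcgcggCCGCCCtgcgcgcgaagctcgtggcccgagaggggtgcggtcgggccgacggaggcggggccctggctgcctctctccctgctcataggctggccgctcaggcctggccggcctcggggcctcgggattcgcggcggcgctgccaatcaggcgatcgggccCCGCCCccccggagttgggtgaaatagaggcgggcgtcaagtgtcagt
KLF6: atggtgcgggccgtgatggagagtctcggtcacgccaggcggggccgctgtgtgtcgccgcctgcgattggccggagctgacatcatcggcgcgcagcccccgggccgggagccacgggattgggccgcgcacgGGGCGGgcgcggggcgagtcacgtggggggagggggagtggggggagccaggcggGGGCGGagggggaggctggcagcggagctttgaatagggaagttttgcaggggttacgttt
The KLF13 window held 3 boxes, KLF4 held 4, KLF5 held 2, KLF6 held 2 and the AT-rich KLF9 window held 0. KLF5 has a further window at chr13:73054726-73054975 (plus strand), which held 0 boxes and 1 copy of GGTCA. Among KLFs not called at 2 h in Ishikawa cells, KLF16 held 7 boxes, KLF11 held 2 and 6 in its windows, and KLF2 held 4. The KLF windows with boxes had a GC content of 69.2% to 86.4%, against a median of 58% over all windows. The full palindromic estrogen response element GGTCANNNTGACC was in none of the 10 KLF windows and in 0.0401% of all windows, while its 5-letter arm GGTCA, also searched on both strands, was in the KLF13, KLF9 and KLF6 windows above and in 32.6% of all windows. The AP-1 motif TGANTCA was in none of the 10 and in 6.59% of all windows. These are letter matches in short windows and say nothing about binding. They also say nothing about the promoters of KLF10 and KLF3.

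Before E2, the lines differed in which KLF was most abundant. Per kilobase of its main GENCODE transcript, KLF10 had the highest level of the 10 in Ishikawa cells, at 44.7 ± 0.193 CPM (SD, n = 2 libraries), and KLF6 had the highest in T-47D cells, at 17.3 ± 0.475 CPM. KLF6 is a broadly expressed zinc finger protein studied as a tumor suppressor. The order in Ishikawa cells continued with KLF13 at 24.4 ± 0.272, KLF16 at 22.3 ± 1.85, KLF5 at 20.4 ± 0.595, KLF6 at 9.31 ± 0.334 and KLF3 at 7.86 ± 0.621 CPM per kb. KLF11 at 3.81 ± 0.154, KLF2 at 1.23 ± 0.238, KLF4 at 0.945 ± 0.0582 and KLF9 at 0.736 ± 0.0298 CPM per kb closed it. No neighbours in this order overlapped between libraries. In T-47D cells, KLF6 was followed by KLF16 at 8.77 ± 0.522, KLF10 at 6.29 ± 0.504, KLF3 at 5.22 ± 0.00124, KLF4 at 4.76 ± 0.159 and KLF13 at 3.77 ± 0.196 CPM per kb. KLF11 at 3.68 ± 0.184 CPM per kb overlapped with KLF13, and KLF9 at 1.92 ± 0.140, KLF5 at 1.43 ± 0.268 and KLF2 at 0.420 ± 0.0265 CPM per kb stood below it. With its longest transcript as the length, KLF10 still came first in Ishikawa cells at 35.6 CPM per kb, but at 5.01 CPM per kb in T-47D cells it came after KLF3 and overlapped with KLF3 and KLF4.

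**Figure D1:**
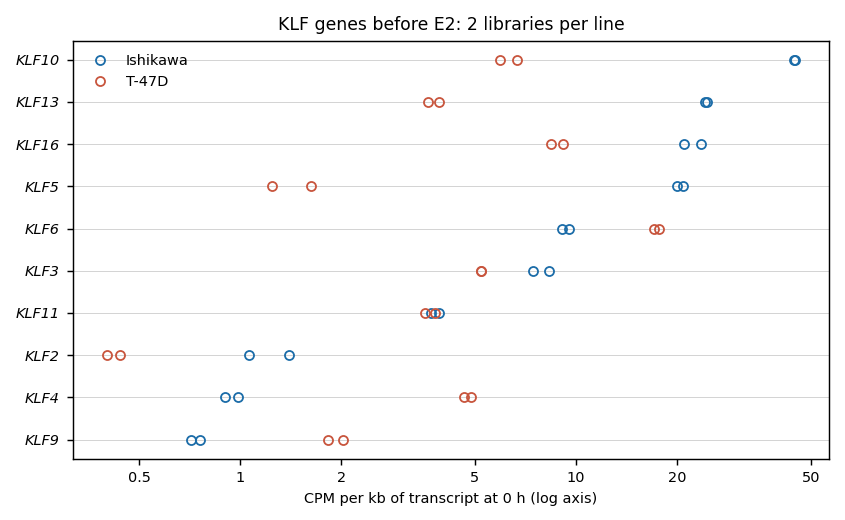
Level of each KLF gene at 0 h in CPM per kilobase of transcript, on a log axis, with 1 circle per library and 2 libraries per line. KLF10, KLF13 and KLF5 lie to the right in Ishikawa cells, KLF6, KLF4 and KLF9 lie to the right in T-47D cells, and KLF11 is the gene whose libraries overlap between the lines.

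Between the lines at 0 h, 9 of the 10 KLFs differed by edgeR's quasi-likelihood test at an adjusted p under 0.05, beside 81.9% of all 17090 genes tested, so a line difference was the usual case. KLF5, which promotes proliferation of epithelial cells, was 14.2-fold lower in T-47D cells (log2 difference, T-47D minus Ishikawa, of -3.83 ± 0.097 (SE), adjusted p = 1.73e-18). KLF10 was 7.10-fold lower (-2.83 ± 0.084 (SE), adjusted p = 2.49e-17) and KLF13 6.48-fold lower (-2.70 ± 0.060 (SE), adjusted p = 2.08e-19). KLF2, KLF16 and KLF3 were also lower in T-47D cells, with log2 differences of -1.55 ± 0.23, -1.35 ± 0.087 and -0.59 ± 0.076. KLF4, one of the reprogramming factors and a regulator of epithelial differentiation, was 5.03-fold higher in T-47D cells (2.33 ± 0.13 (SE), adjusted p = 8.43e-13), and KLF9 and KLF6 were higher by 1.38 ± 0.14 and 0.90 ± 0.063. KLF11, a close relative of KLF10, had a log2 difference of -0.047 ± 0.091, with a 95% interval of -0.24 to 0.14. In bulk RNA, fewer cells with a transcript and less of it per cell cannot be told apart.

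After E2, KLF10 rose in T-47D cells, KLF13, KLF9 and KLF4 rose in Ishikawa cells, and KLF6 fell early in both lines. All 10 passed the filter on low counts in every fit. In Ishikawa cells, KLF13, KLF9 and KLF4 rose and KLF5 and KLF6 fell at 2 h. These were 3 of 10 called higher, beside 2.61% of all genes tested, and 2 of 10 called lower, beside 1.74%. KLF4 and KLF13 were called higher at 4 h and at 8 h, where 7.66% and 12% of all genes were, and KLF5 was called lower at both times, with KLF6 called lower at 4 h only, where 6.6% and 10.1% of all genes were called lower at 4 h and 8 h. In T-47D cells, KLF10 alone was called higher, at 2, 4 and 8 h, beside 4.9%, 11.1% and 15.4% of all genes. KLF3 and KLF6 were called lower at 2 h, KLF3, KLF4, KLF6 and KLF9 at 4 h, and KLF3, KLF4 and KLF9 at 8 h, beside 4.4%, 10.4% and 14.3% of all genes. The 3 comparisons of a line share its 0 h libraries. The median log2 fold change of the 10 KLFs lay between -0.20 and 0.093 over the 6 comparisons, and that of all genes tested between -0.0094 and 0.0047.

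**Figure D2:**
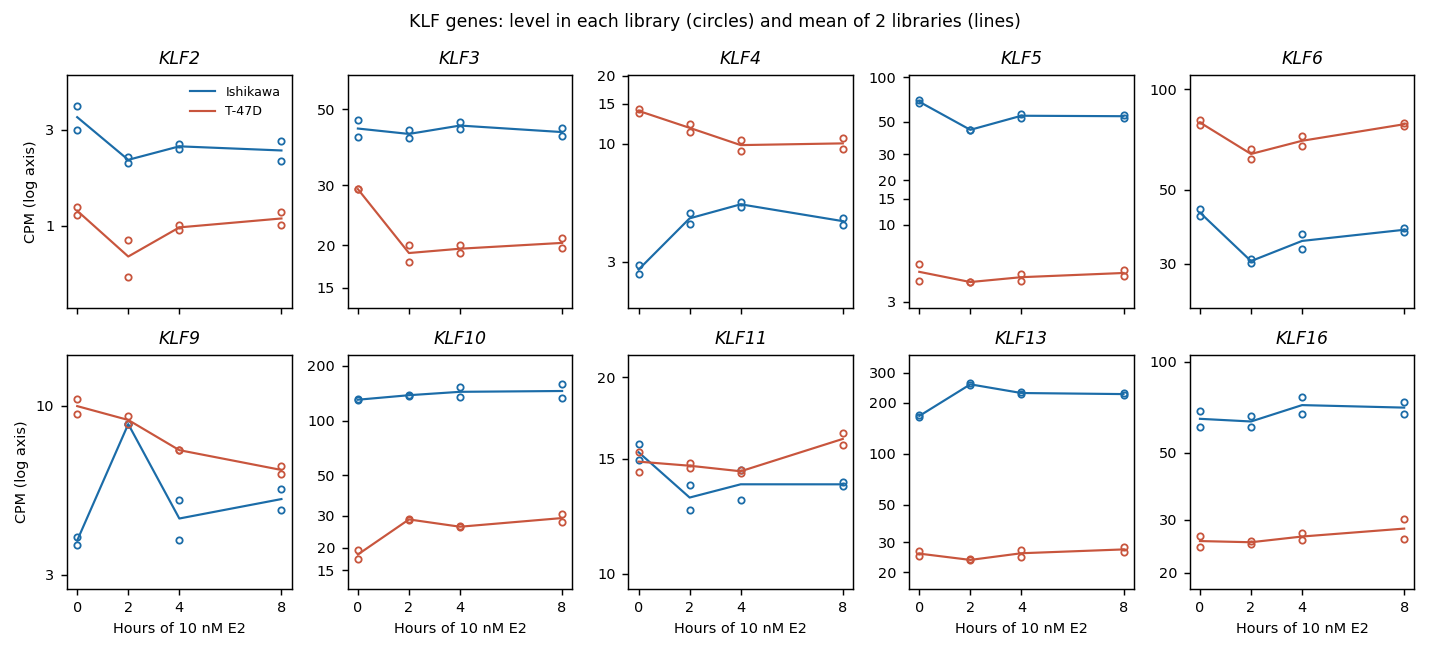
Level of each KLF gene in CPM, on a log axis of its own for each gene, against hours of 10 nM E2, with a circle for each of the 2 libraries and a line through their means. KLF10 steps up in T-47D cells, KLF13 and KLF4 step up in Ishikawa cells, KLF3 steps down in T-47D cells, and the Ishikawa KLF9 values reach 8.79 CPM at 2 h and are lower at 4 h and 8 h.

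KLF10 (TIEG1) is a repressor that recruits SIN3A and takes part in TGF-beta signaling. Its gene lies on chromosome 8 of GRCh37, from 103661012 to 103667953 on the minus strand. In T-47D cells, KLF10 stood at 19.4 and 17.3 CPM at 0 h, then 28.3 and 28.9 CPM after 2 h, 26.0 and 26.2 CPM after 4 h and 27.7 and 30.5 CPM after 8 h. All 6 treated libraries were above both 0 h libraries. It was 1.55-fold higher at 2 h (log2 fold change 0.63 ± 0.078 (SE), adjusted p = 1.84e-05), 1.42-fold higher at 4 h (0.50 ± 0.078 (SE), adjusted p = 0.000128) and 1.59-fold higher at 8 h (0.67 ± 0.078 (SE), adjusted p = 3.63e-06). No later step was called in T-47D cells, with log2 changes of -0.13 ± 0.075 (SE), adjusted p = 0.472 from 2 h to 4 h and 0.16 ± 0.075 (SE), adjusted p = 0.285 from 4 h to 8 h.

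In Ishikawa cells, where KLF10 was the highest KLF per length before E2, it stood at 129.9 and 131 CPM at 0 h, then 137 and 139 CPM after 2 h, 154 and 134 CPM after 4 h and 133 and 158 CPM after 8 h. The treated libraries lay above both 0 h libraries, the lowest of them by a small margin. The log2 fold changes were 0.091 ± 0.078 (SE), adjusted p = 0.61 at 2 h, 0.15 ± 0.078 (SE), adjusted p = 0.217 at 4 h and 0.16 ± 0.078 (SE), adjusted p = 0.169 at 8 h, with 95% intervals of -0.075 to 0.26, -0.016 to 0.32 and -0.010 to 0.32. None was called, but without 8 h replicate 1 the 8 h value was 0.29, adjusted p = 0.0225.

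The other SIN3-binding KLFs did not follow KLF10. KLF13, a factor first described in T lymphocytes (chromosome 15, 31619038 to 31727868, plus strand, GRCh37), stood at 168 and 166 CPM at 0 h in Ishikawa cells, then 261 and 253 CPM after 2 h, 232 and 224 CPM after 4 h and 227 and 223 CPM after 8 h. Every treated library was above both 0 h libraries, and the 2 h libraries were the highest. KLF13 was 1.55-fold higher at 2 h (log2 fold change 0.63 ± 0.053 (SE), adjusted p = 1.26e-06), 1.37-fold higher at 4 h (0.46 ± 0.053 (SE), adjusted p = 2.94e-05) and 1.34-fold higher at 8 h (0.43 ± 0.053 (SE), adjusted p = 5.35e-05). In T-47D cells it stood between 23.5 and 28.2 CPM in all 8 libraries, with the 0 h values of 24.8 and 26.7 inside that range. Its T-47D log2 fold changes were -0.13 ± 0.077, 0.00049 ± 0.075 and 0.082 ± 0.076, and the lowest adjusted p was 0.338. From its 2 h peak, KLF13 changed in Ishikawa cells by -0.20 ± 0.052 (SE), adjusted p = 0.0584 to 8 h, and this difference was called by DESeq2 (-0.20, adjusted p = 0.0129), without a filter (adjusted p = 0.0251), with only the 2 time points fitted (adjusted p = 0.0268) and with 4 h and 8 h as 1 group (-0.19, adjusted p = 0.0194). A pseudogene, UBE2CP4, lies within KLF13 on the same strand, and how the counting treated such overlaps is not given in the sources used here.

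KLF9, a repressor induced by glucocorticoids and thyroid hormone (chromosome 9, 72999520 to 73029573, minus strand, GRCh37), rose in Ishikawa and fell in T-47D cells. In Ishikawa cells it stood at 3.94 and 3.72 CPM at 0 h, then 8.78 and 8.79 CPM after 2 h, 3.84 and 5.12 CPM after 4 h and 5.51 and 4.78 CPM after 8 h. The 2 h libraries were far above all others of the line, and the 4 h libraries overlapped with 0 h. KLF9 was 2.31-fold higher at 2 h (log2 fold change 1.21 ± 0.16 (SE), adjusted p = 0.00018), the largest change of any of the 10 KLFs in either line against 0 h. At 4 h and 8 h the values were 0.24 ± 0.17 (SE), adjusted p = 0.377 and 0.43 ± 0.16 (SE), adjusted p = 0.0758. KLF9 then fell by 0.97 ± 0.16 on the log2 scale from 2 h to 4 h (adjusted p = 0.00366) and by 0.78 ± 0.16 from 2 h to 8 h (adjusted p = 0.0141). The call from 2 h to 4 h was lost without Ishikawa 4 h replicate 1 (-0.77, adjusted p = 0.0519), and that from 2 h to 8 h was lost without 2 h replicate 1, 2 h replicate 2 or 8 h replicate 2 (adjusted p of 0.125, 0.136 and 0.131).

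In T-47D cells, KLF9 stood at 10.5 and 9.48 CPM at 0 h, then 8.80 and 9.30 CPM after 2 h, 7.31 and 7.28 CPM after 4 h and 6.17 and 6.49 CPM after 8 h. Both libraries of each later time point lay under those of the one before it. The log2 fold change was -0.15 ± 0.11 (SE), adjusted p = 0.439 at 2 h, -0.46 ± 0.11 (SE), adjusted p = 0.00489 at 4 h and -0.66 ± 0.11 (SE), adjusted p = 0.000167 at 8 h, which is 1.58-fold lower. The change from 2 h to 8 h was -0.51 ± 0.11 (SE), adjusted p = 0.00372. Without 0 h replicate 1 the 4 h call was lost (-0.38, adjusted p = 0.0505).

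KLF11 (TIEG2; chromosome 2, 10182976 to 10194963, plus strand) and KLF16 (chromosome 19, 1852398 to 1863578, minus strand) are the remaining SIN3-binding members, and neither was called in any comparison with 0 h. KLF11 stood at 15.8 and 14.9 CPM at 0 h in Ishikawa cells and between 12.5 and 14.4 CPM in the 6 treated libraries, all below 0 h, with log2 fold changes of -0.22 ± 0.097, -0.16 ± 0.098 and -0.17 ± 0.097 (lowest adjusted p 0.242). In T-47D cells it stood at 15.4 and 14.3 CPM at 0 h and between 14.3 and 16.4 CPM after E2, with log2 fold changes of -0.030 ± 0.084, -0.055 ± 0.083 and 0.12 ± 0.083. KLF16 ranged from 60.8 to 76.5 CPM over the Ishikawa libraries and from 24.4 to 30.2 CPM over the T-47D libraries. Its largest fitted changes were 0.16 ± 0.080 (SE), adjusted p = 0.21 in Ishikawa cells at 4 h and 0.14 ± 0.081 (SE), adjusted p = 0.231 in T-47D cells at 8 h. Without T-47D 8 h replicate 2, the lower of the pair, KLF16 was called at 8 h (0.25, adjusted p = 0.0439). Long noncoding RNAs overlap KLF11 and KLF16 on the opposite strand, and the strand setting of the counting is not given in the sources used here.

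KLF3, the CtBP-dependent repressor known from adipose tissue and red blood cells (chromosome 4, 38665818 to 38703138, plus strand), fell in T-47D cells. It stood at 29.2 and 29.2 CPM at 0 h, then 17.8 and 20.1 CPM after 2 h, 20.1 and 19.0 CPM after 4 h and 19.6 and 21.0 CPM after 8 h, and every treated library was below both 0 h libraries. It was 1.55-fold lower at 2 h (log2 fold change -0.63 ± 0.081 (SE), adjusted p = 2.62e-05), changed by -0.58 ± 0.079 (SE), adjusted p = 3.13e-05 at 4 h and was 1.44-fold lower at 8 h (-0.52 ± 0.080 (SE), adjusted p = 6.58e-05). In Ishikawa cells, KLF3 stood at 46.4 and 41.5 CPM at 0 h and between 41.3 and 45.9 CPM after E2. The Ishikawa log2 fold changes were -0.044 ± 0.074, 0.036 ± 0.074 and -0.038 ± 0.074, with 95% intervals of -0.20 to 0.11, -0.12 to 0.19 and -0.20 to 0.12. KLF3-AS1 overlaps the start of KLF3 on the opposite strand, so its reads may have been counted with KLF3.

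KLF4 (chromosome 9, 110247133 to 110252763, minus strand) rose in Ishikawa cells, where it was low, and fell in T-47D cells, where it was higher. In Ishikawa cells it stood at 2.89 and 2.65 CPM at 0 h, then 4.43 and 4.92 CPM after 2 h, 5.25 and 5.54 CPM after 4 h and 4.38 and 4.71 CPM after 8 h, from 127 to 276 counts per library. All treated libraries were above both 0 h libraries, and KLF4 was 1.70-fold higher at 2 h (log2 fold change 0.76 ± 0.16 (SE), adjusted p = 0.0104), 1.95-fold at 4 h (0.97 ± 0.16 (SE), adjusted p = 0.000874) and 1.63-fold at 8 h (0.71 ± 0.16 (SE), adjusted p = 0.00598). The 2 h call was lost without 0 h replicate 2 (0.71, adjusted p = 0.115) or 2 h replicate 2 (0.69, adjusted p = 0.159), and the 8 h call without 0 h replicate 2 (0.65, adjusted p = 0.0605).

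In T-47D cells, KLF4 stood at 14.3 and 13.6 CPM at 0 h, then 11.2 and 12.2 CPM after 2 h, 10.4 and 9.28 CPM after 4 h and 10.6 and 9.50 CPM after 8 h, all treated libraries below both 0 h libraries. The log2 fold change was -0.26 ± 0.10 (SE), adjusted p = 0.125 at 2 h, -0.51 ± 0.10 (SE), adjusted p = 0.0013 at 4 h and -0.48 ± 0.10 (SE), adjusted p = 0.00144 at 8 h. KLF4 was thus 1.42-fold lower at 4 h and 1.39-fold lower at 8 h. A long noncoding RNA also overlaps KLF4 on the opposite strand.

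KLF5 (chromosome 13, 73629114 to 73651679, plus strand) fell in Ishikawa cells and partly returned. It stood at 66.9 and 69.7 CPM at 0 h, then 43.9 and 44.1 CPM after 2 h, 56.5 and 53.2 CPM after 4 h and 53.1 and 55.8 CPM after 8 h. No treated library reached the 0 h libraries. KLF5 was 1.54-fold lower at 2 h (log2 fold change -0.62 ± 0.065 (SE), adjusted p = 1.4e-05), 1.24-fold lower at 4 h (-0.31 ± 0.065 (SE), adjusted p = 0.00487) and 1.26-fold lower at 8 h (-0.33 ± 0.064 (SE), adjusted p = 0.00228). From 2 h it rose again by 0.32 ± 0.066 (SE), adjusted p = 0.0192 to 4 h and by 0.29 ± 0.065 (SE), adjusted p = 0.0275 to 8 h, calls that were lost without either 2 h library, and without 4 h replicate 1 or 8 h replicate 2, with adjusted p from 0.195 to 0.286. In T-47D cells, KLF5 was scarce, at 5.43 and 4.16 CPM at 0 h and from 4.08 to 4.90 CPM after E2, and its log2 fold changes were -0.24 ± 0.15, -0.13 ± 0.15 and -0.028 ± 0.15 (lowest adjusted p 0.39).

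KLF6 (chromosome 10, 3818188 to 3827473, minus strand) was called lower at 2 h and 4 h in both lines and at 8 h in neither. In Ishikawa cells it stood at 43.8 and 41.6 CPM at 0 h, then 30.9 and 30.2 CPM after 2 h, 36.9 and 33.3 CPM after 4 h and 38.5 and 37.4 CPM after 8 h. All treated libraries were below both 0 h libraries, and the log2 fold changes were -0.47 ± 0.072 (SE), adjusted p = 0.000698 at 2 h, -0.28 ± 0.072 (SE), adjusted p = 0.0192 at 4 h and -0.17 ± 0.072 (SE), adjusted p = 0.097 at 8 h. With the 4 h and 8 h libraries as 1 group, KLF6 was called lower at the later times (-0.22, adjusted p = 0.017), and the 4 h call was lost without 0 h replicate 1 (-0.24, adjusted p = 0.0531) or 4 h replicate 2 (-0.21, adjusted p = 0.141).

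In T-47D cells, KLF6 stood at 78.1 and 81.1 CPM at 0 h, then 61.8 and 66.3 CPM after 2 h, 67.8 and 72.5 CPM after 4 h and 77.8 and 79.5 CPM after 8 h. The 2 h and 4 h libraries were below 0 h and the 8 h libraries overlapped with it. The log2 fold changes were -0.32 ± 0.054 (SE), adjusted p = 0.00051 at 2 h, -0.19 ± 0.054 (SE), adjusted p = 0.0171 at 4 h and -0.018 ± 0.054 (SE), adjusted p = 0.844 at 8 h. The 4 h call was lost without 0 h replicate 2 (-0.15, adjusted p = 0.136) or 4 h replicate 1 (-0.13, adjusted p = 0.257).

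KLF2, known as the flow-responsive factor of endothelial cells (chromosome 19, 16435637 to 16439496, plus strand), was the scarcest KLF in T-47D cells, with 26 to 63 counts per library there and 90 to 185 in Ishikawa cells. It stood at 3.94 and 2.99 CPM at 0 h in Ishikawa cells and between 2.05 and 2.64 CPM in the 6 treated libraries, all lower. The log2 fold changes were -0.69 ± 0.21 (SE), adjusted p = 0.0811 at 2 h, -0.47 ± 0.21 (SE), adjusted p = 0.143 at 4 h and -0.55 ± 0.21 (SE), adjusted p = 0.0706 at 8 h, so none was called at the filter used. Without a filter it was called at 2 h (-0.71, adjusted p = 0.019) and 8 h (-0.56, adjusted p = 0.0401), and with 4 h and 8 h as 1 group it was called as well (-0.51, adjusted p = 0.0363). In T-47D cells it stood at 1.13 and 1.24 CPM at 0 h, then 0.557 and 0.845 CPM after 2 h, with a log2 fold change of -0.77 ± 0.30 (SE), adjusted p = 0.132. Endothelial markers PECAM1 and CDH5 were at most 0.134 CPM in every library, and the 7 endothelial markers summed to 5.33 to 9.06 CPM in Ishikawa and 0.428 to 1.09 CPM in T-47D libraries, VWF making up most of the former.

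**Figure D3:**
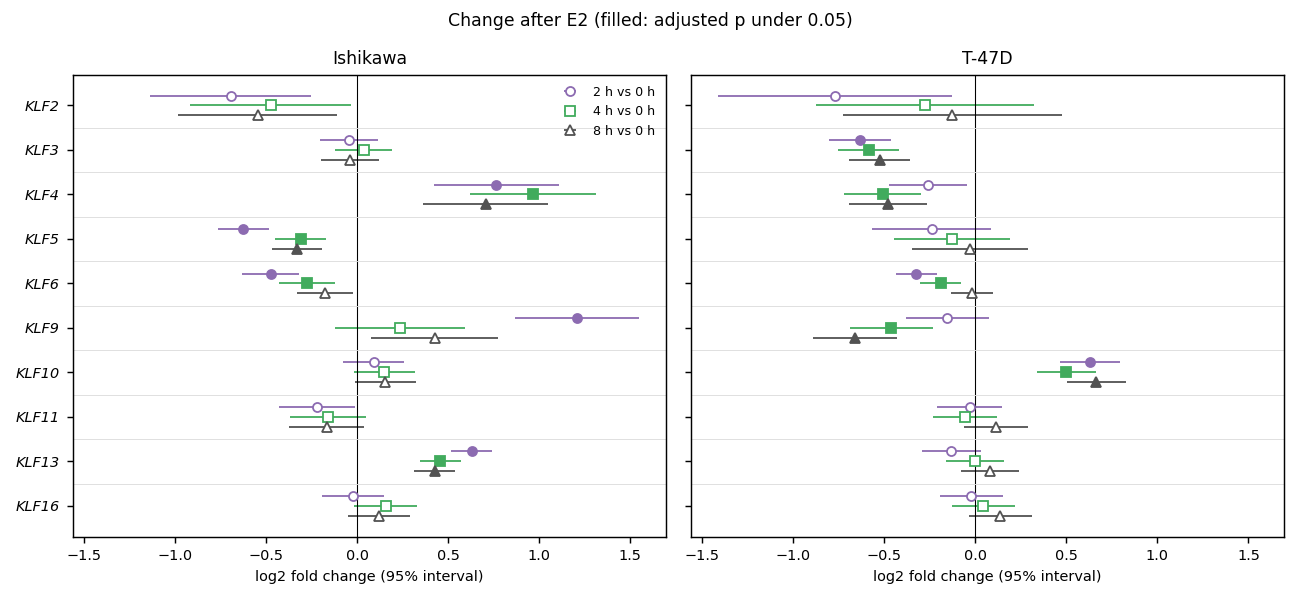
Log2 fold change of each KLF gene against 0 h in each line with its 95% interval, circles for 2 h, squares for 4 h and triangles for 8 h. Filled symbols passed an adjusted p of 0.05, and each symbol compares 2 treated with 2 untreated libraries. KLF10 is filled to the right in T-47D cells only, KLF13 and KLF4 are filled to the right in Ishikawa cells, and KLF3 is filled to the left in T-47D cells.

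The difference in response between the lines was tested itself, as the T-47D change minus the Ishikawa change over all 16 libraries. KLF10 responded more in T-47D cells, and KLF3, KLF4, KLF9 and KLF13 had lower changes in T-47D than in Ishikawa cells. These were 5 of the 10 KLFs at 2 h, beside 2.67% of all genes, 4 at 4 h, beside 6.03%, and 5 at 8 h, beside 10%. For KLF10 the difference was 0.56 ± 0.11 (SE), adjusted p = 0.00597 at 2 h, 0.36 ± 0.11 (SE), adjusted p = 0.0669 at 4 h and 0.51 ± 0.11 (SE), adjusted p = 0.00561 at 8 h. For KLF4 it was -1.01 ± 0.18 (SE), adjusted p = 0.00149, -1.46 ± 0.18 (SE), adjusted p = 1.34e-05 and -1.19 ± 0.18 (SE), adjusted p = 0.000125, the largest at 4 h and 8 h of the 10 genes. For KLF9 it was -1.34 ± 0.19 (SE), adjusted p = 0.000143, -0.68 ± 0.20 (SE), adjusted p = 0.0467 and -1.09 ± 0.20 (SE), adjusted p = 0.000875. For KLF13 the differences were -0.74 ± 0.082 (SE), adjusted p = 5.05e-06, -0.44 ± 0.081 (SE), adjusted p = 0.00137 and -0.35 ± 0.081 (SE), adjusted p = 0.00812, and for KLF3 they were -0.57 ± 0.11 (SE), adjusted p = 0.00331, -0.61 ± 0.11 (SE), adjusted p = 0.00103 and -0.49 ± 0.11 (SE), adjusted p = 0.00518.

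The KLF10 difference at 2 h was no longer called without Ishikawa 2 h replicate 1 (0.51, adjusted p = 0.0506) or T-47D 0 h replicate 2 (0.48, adjusted p = 0.0670), and at 4 h it was called with no filter (0.35, adjusted p = 0.00637), with Ishikawa 4 h and 8 h as 1 group (adjusted p = 0.0419) and without Ishikawa 4 h replicate 1 (0.44, adjusted p = 0.0364). The KLF9 difference at 4 h was lost when any of the 8 libraries compared, other than Ishikawa 4 h replicate 1, was left out, and the KLF13 difference at 8 h without T-47D 0 h replicate 2 (-0.29, adjusted p = 0.0582). With all 16 libraries, KLF5, KLF6, KLF2, KLF11 and KLF16 were called at no time. Without T-47D 0 h replicate 1, this no longer held for all of them at 2 h and 8 h. The 95% interval for KLF6, which was called lower in both lines, was -0.017 to 0.36 at 2 h, and that for KLF5 was 0.10 to 0.70.

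After 2 h, the KLFs called between treated time points in Ishikawa cells moved back towards their level before E2. In T-47D cells KLF6 did so and KLF9 fell further. In Ishikawa cells, 2 of 10 differed between 4 h and 2 h (KLF5 and KLF9, beside 2.39% of all genes), 3 between 8 h and 2 h (KLF5, KLF6 and KLF9, beside 2.24%) and 0 between 8 h and 4 h (beside 0.0127%, or 2 of 15787 genes). At an unadjusted p under 0.05, 0 of the 10 KLFs and 554 genes differed between 8 h and 4 h in edgeR. KLF6 had risen by 0.30 ± 0.072 (SE), adjusted p = 0.0427 from 2 h to 8 h, a call lost when any 1 of the 4 libraries compared was left out. In T-47D cells, 0 of 10 differed between 4 h and 2 h (beside 3.4% of all genes, with KLF4, KLF6 and KLF9 at an unadjusted p under 0.05) and 0 between 8 h and 4 h (beside 3.42%, with KLF6 and KLF10 at an unadjusted p under 0.05). Between 8 h and 2 h, KLF6 had risen by 0.30 ± 0.054 (SE), adjusted p = 0.000679 and KLF9 had fallen, beside 16.8% of all genes. DESeq2 called 0 KLFs in each of the 3 comparisons in which edgeR called 0.

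The further SP and KLF genes that were called mostly fell. Of 16 such genes, 11 were tested in each line. In Ishikawa cells, 0 rose and 1, 3 and 4 fell after 2, 4 and 8 h, with medians of -0.15, -0.23 and -0.22 on the log2 scale, and in T-47D cells 0, 0 and 1 rose and 2, 4 and 5 fell, with medians of -0.11, -0.11 and -0.19. At an unadjusted p under 0.05 in edgeR, 1, 0 and 0 were higher in Ishikawa cells and 0 and 1 at 2 h and 4 h in T-47D cells, and DESeq2 called 0 higher in these 5 comparisons. Of all genes tested, 1.74%, 6.6% and 10.1% were lower in Ishikawa and 4.4%, 10.4% and 14.3% in T-47D cells. The 4 genes called at 8 h in Ishikawa cells were 2 without 0 h replicate 2 or 8 h replicate 2, and the 4 at 4 h in T-47D cells were 2 without 0 h replicate 2. KLF12, which like KLF3 and KLF8 binds CtBP, stood at 36.0 and 39.8 CPM before E2 and 25.0 and 26.4 CPM after 4 h in Ishikawa cells (log2 fold change -0.56 ± 0.076, adjusted p = 0.000154) and at 4.25 and 5.17 and 2.59 and 2.64 CPM in T-47D cells (-0.85 ± 0.17, adjusted p = 0.00117). At 2 h its log2 fold changes were 0.17 ± 0.074 and -0.017 ± 0.16. KLF8 was abundant in T-47D cells, where it fell from 78.3 and 90.8 to 59.3 and 67.4 CPM at 8 h (-0.42 ± 0.072, adjusted p = 0.000239), and stood under 1 CPM in all Ishikawa libraries. SP6 fell in T-47D cells from 21.7 and 22.7 to 10.5 and 11.6 CPM at 8 h (-1.01 ± 0.087, adjusted p = 9.02e-08), and SP8 fell in Ishikawa cells from 125 and 126 to 94.4 and 98.7 CPM at 2 h (-0.37 ± 0.057, adjusted p = 0.000753).

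The corepressors that SIN3-binding and CtBP-binding KLFs recruit were called at 8 h at shares near those of all genes. Of 17 SIN3 complex and CtBP genes, 1, 2 and 2 rose and 0, 1 and 1 fell in Ishikawa cells at 2, 4 and 8 h, and 1, 2 and 3 rose and 0, 1 and 2 fell in T-47D cells, with medians between 0.017 and 0.075. At 2 h, where edgeR called 0 lower, 2 genes in Ishikawa and 1 in T-47D cells were lower at an unadjusted p under 0.05, and DESeq2 called 1 and 0. Of all genes tested in Ishikawa cells, 2.61%, 7.66% and 12% were higher and 1.74%, 6.6% and 10.1% lower at 2, 4 and 8 h. T-47D cells had 4.9%, 11.1% and 15.4% higher and 4.4%, 10.4% and 14.3% lower. Over both directions, the 3 called at 8 h in Ishikawa cells were 1 without 8 h replicate 2, the 3 at 4 h in T-47D cells were 1 without 0 h replicate 2 or either 4 h library, and the 5 at 8 h in T-47D cells were 3 without either 0 h library. SIN3B, a scaffold of the complex, rose in Ishikawa cells from 86.4 and 101 CPM at 0 h to 129 and 129 CPM at 2 h (0.47 ± 0.079, adjusted p = 0.00178), and its T-47D value was 0.082 ± 0.062. CTBP2 rose in T-47D cells at 2 h (0.27 ± 0.047, adjusted p = 0.000708) and fell in Ishikawa cells at 4 h (-0.41 ± 0.072, adjusted p = 0.00129). RBBP7, a histone-binding subunit, rose in T-47D cells at 8 h (0.25 ± 0.038, adjusted p = 7.35e-05), and the deacetylase HDAC2 rose in Ishikawa cells at 8 h (0.23 ± 0.059, adjusted p = 0.011).

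In the TGF-beta pathway, where KLF10 and KLF11 act, both ligand genes among the named members fell. Of 19 genes tested in Ishikawa cells, 3 rose at each time and 3, 3 and 4 fell at 2, 4 and 8 h. Of 17 tested in T-47D cells, 1, 0 and 2 rose and 4, 6 and 7 fell, with medians of -0.030, -0.094 and -0.15. At 4 h in T-47D cells, where edgeR and DESeq2 called 0 higher, 2 were higher at an unadjusted p under 0.05. Of all genes tested, 2.61%, 7.66% and 12% were higher and 1.74%, 6.6% and 10.1% lower in Ishikawa cells. In T-47D cells, 4.9%, 11.1% and 15.4% were higher and 4.4%, 10.4% and 14.3% lower. The 3 higher of 19 at 8 h in Ishikawa cells were thus near the share of all genes, and over both directions the 7 called there were 4 without 0 h replicate 2. TGFB2 stood at 53.6 and 58.3 CPM before E2 and 25.1 and 25.4 CPM after 4 h in Ishikawa cells (-1.14 ± 0.074, adjusted p = 5.39e-08), and at 27.8 and 31.9 and 19.1 and 22.9 CPM at 0 h and 8 h in T-47D cells (-0.51 ± 0.090, adjusted p = 0.000314). TGFB3 fell in T-47D cells from 302 and 307 CPM at 0 h to 178 and 178 CPM at 8 h (-0.78 ± 0.040, adjusted p = 9.37e-11). SKIL, which represses SMAD targets, rose in Ishikawa cells at 2 h (0.94 ± 0.067, adjusted p = 1.9e-07) and fell in T-47D cells at 8 h (-0.31 ± 0.071, adjusted p = 0.00289). PMEPA1, a TGF-beta target that dampens the pathway, fell in T-47D cells at 8 h (-0.50 ± 0.047, adjusted p = 2.68e-07). In Ishikawa cells, PMEPA1 stood higher at 2 h, at 158 and 160 CPM against 134 and 136 CPM at 0 h. Its Ishikawa libraries at 4 h and 8 h overlapped with 0 h.

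Of 7 ubiquitin ligase genes whose products are known to act on KLF proteins, 0, 1 and 1 rose and 0 fell in Ishikawa cells, and 1 rose and 1 fell at each time in T-47D cells. At an unadjusted p under 0.05 in edgeR, 1 was higher at 2 h and 0 were lower at any time in Ishikawa cells, and DESeq2 called 0 at 2 h and 0 lower at any time. Of all genes tested in Ishikawa cells, 2.61%, 7.66% and 12% were higher and 1.74%, 6.6% and 10.1% lower. In T-47D cells, 4.9%, 11.1% and 15.4% of all genes were higher and 4.4%, 10.4% and 14.3% lower. At 4 h and 8 h in T-47D cells, 1 of 7 each way was thus near the share of all genes. The single Ishikawa gene at 4 h was lost without 0 h replicate 2 or either 4 h library, and without 0 h replicate 1 the counts were 1 at 2 h and 2 at 8 h, as they were 2 at 8 h without 8 h replicate 1. WWP1, which targets KLF2 and KLF5, was the gene that rose in T-47D cells, from 50.4 and 58.1 CPM at 0 h to 73.2 and 75.0 CPM at 4 h (0.44 ± 0.065, adjusted p = 7.23e-05), and it rose in Ishikawa cells at 8 h (0.36 ± 0.076, adjusted p = 0.00376). FBXO32 fell in T-47D cells from 154 and 169 to 73.3 and 79.2 CPM at 8 h (-1.08 ± 0.062, adjusted p = 4.33e-10). ITCH and FBXW7 were called at no time, with log2 fold changes between -0.011 and 0.26.

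Immediate-early genes, the rapidly induced class to which several KLFs belong, fell more often than they rose in Ishikawa cells. Of 18 tested, 0 rose and 7 fell at 2 h, 2 rose and 6 fell at 4 h, and 3 rose and 7 fell at 8 h, with medians of -0.41, -0.20 and -0.23. Of all genes tested, 2.61%, 7.66% and 12% were higher and 1.74%, 6.6% and 10.1% lower, and the 12% at 8 h was near the 3 of 18 here. At 2 h, 2 were higher at an unadjusted p under 0.05 in edgeR, and DESeq2 called 0 higher. Of 17 tested in T-47D cells, 4, 2 and 3 rose and 5, 4 and 5 fell, with medians of -0.11, -0.044 and -0.022. Among all genes tested there, 4.9%, 11.1% and 15.4% were higher and 4.4%, 10.4% and 14.3% lower. The rises at 4 h and 8 h were thus near the share of all genes. JUNB stood at 64.3 and 69.2 CPM before E2 and 29.1 and 29.8 CPM after 2 h in Ishikawa cells (-1.17 ± 0.093, adjusted p = 6.87e-07) and fell in T-47D cells too (-0.53 ± 0.070, adjusted p = 3.74e-05). JUN fell at 2 h by 0.80 ± 0.083 in Ishikawa cells and by 0.29 ± 0.047 in T-47D cells, and CTGF fell in Ishikawa cells (-1.13 ± 0.076, adjusted p = 1.11e-07). MYC, the other named gene of this class, went the other way, with log2 fold changes of 2.51, 2.52 and 2.70 in T-47D cells. In Ishikawa cells its values were 0.15, 0.50 and 0.46, called at 4 h and 8 h. KLF5 and KLF6 fell in Ishikawa cells at 2 h. Summed fibroblast markers fell too, from 254 to 277 CPM at 0 h to 156 to 204 CPM at 4 h in Ishikawa libraries and from 94.8 to 103 CPM at 0 h to 77.9 to 84.2 CPM at 8 h in T-47D libraries. Of these 8 markers, 3 in Ishikawa and 2 in T-47D cells were above a mean of 1 CPM, COL1A1 made up most of the sum, and DCN, PDGFRB and POSTN were under 1 CPM in every library. The 8 leukocyte markers summed to 2.33 to 3.76 CPM in Ishikawa and 4.43 to 6.04 CPM in T-47D libraries. The part of these immediate-early and marker shifts in the KLF results was not tested.

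The genes whose levels followed KLF10 most closely were RUNX1, CHSY1, MAP6D1, PFKFB3 and MYC. Likeness was Pearson's r of log2 CPM over the 16 libraries after each line was centred on its own mean, among 9913 genes with at least 5 CPM in each line, and it is a description over libraries that share lines and time points. The r values were 0.962 for RUNX1, 0.951 for CHSY1, 0.947 for MAP6D1, 0.947 for PFKFB3 and 0.944 for MYC. Of the KLFs compared, KLF16 was the most like KLF10 at 0.303 and KLF3 ran most against it at -0.80. Since the 5 genes were chosen on these same libraries, a time course like that of KLF10 was fixed by the choice, and their values are given as a description.

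RUNX1, a transcription factor of blood and epithelium, had log2 fold changes in T-47D cells of 1.80, 1.49 and 1.91 after 2, 4 and 8 h and in Ishikawa cells of 0.14, 0.49 and 0.61. MYC, the proto-oncogene, had 2.51, 2.52 and 2.70 in T-47D cells, from 4.83 and 5.70 CPM at 0 h to 32.6 and 36.0 CPM at 8 h, and 0.15, 0.50 and 0.46 in Ishikawa cells. PFKFB3, a regulator of glycolysis, had 1.56 at 2 h in T-47D cells and 0.076 in Ishikawa cells. CHSY1, a chondroitin synthase, had 0.90 and 0.18, and MAP6D1 had 1.61 and 0.17. At 2 h in T-47D cells, the KLF10 change was smaller than those of the 5 genes.

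**Figure D4:**
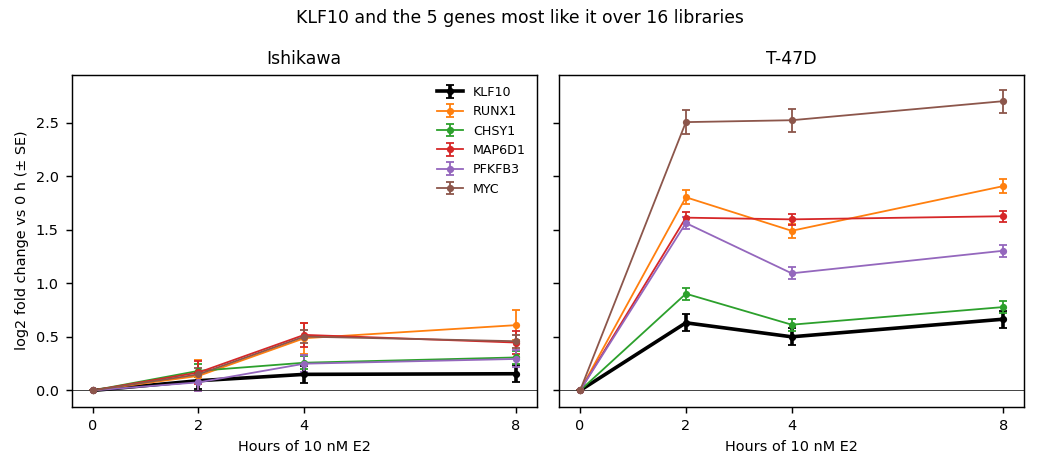
Log2 fold change against 0 h with its SE for KLF10 (black) and the 5 genes most like it, against hours of E2, in each line. All 6 lines step up by 2 h in T-47D cells, with MYC highest and KLF10 lowest, and in Ishikawa cells the highest value is that of RUNX1 at 8 h, at 0.61.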

How the data were processed

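Per the labels and the study's methods, the authors mapped reads to hg19 (HISAT2, SAMtools), counted them over UCSC Known Genes (featureCounts) and deposited unnormalized counts in 1 table per line. Versions, strand setting and treatment of multiply mapped reads are not given in the sources used here. Of the counts from 1 to 10, 71.2% to 74.6% per library were even, so a count need not stand for 1 fragment, and all intervals leave this out.

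Groups are the line and time point of the labels. The deposited counts entered edgeR 4.0.16 in R 4.3.3 (filterByExpr, TMM, glmQLFit, glmQLFTest, time point as a factor of 4 levels, Benjamini-Hochberg adjustment over all genes tested, adjusted p under 0.05). Ishikawa cells gave 15787 tested genes and T-47D cells 15594, with biological coefficients of variation of 6.45% and 5.02%. A fit of 17090 genes over 16 libraries gave the differences between lines. SEs are log2 fold changes over the root of F. CPM used TMM-scaled sizes of all 16 libraries, and log2 CPM a prior count of 2. Positions and lengths came from GENCODE on GRCh37 and promoters from RefSeq. The code was tested on simulated counts. Replicates differed beyond sampling noise (chi-square per gene 3.70 to 11.4).

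All 10 KLFs are named, with up to 4 genes of each list (the smallest adjusted p in any comparison with 0 h) and the 5 genes most like KLF10. The lists were further SP and KLF genes, SIN3 and CtBP corepressors, the TGF-beta pathway, ubiquitin ligases, immediate-early genes and cell type markers. Members and lists were chosen with earlier results of these data known. Alternatives were DESeq2 1.42.0, RLE scaling, an unfiltered fit, a minimum of 10 counts per library, an adjusted p under 0.01, the replicate block, fits of only the time points compared, Ishikawa 4 h and 8 h as 1 group, the longest transcript, Spearman correlation, and leaving out each library.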

Additional observations from a re-analysis of the deposited data

Results flagged for a closer look

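The following results stand out because the change after E2 differed between the 2 lines when that difference was tested, with edgeR's quasi-likelihood model over all 16 libraries and adjustment over 17090 genes. Each value is the T-47D change minus the Ishikawa change on the log2 scale, from 8 libraries. Among these genes, KLF10 had a positive difference, of 0.56 after 2 h and 0.51 after 8 h. KLF13 differed by -0.74 after 2 h, -0.44 after 4 h and -0.35 after 8 h. KLF3 differed by -0.57 after 2 h, -0.61 after 4 h and -0.49 after 8 h. KLF4 differed by -1.01 after 2 h, -1.46 after 4 h and -1.19 after 8 h. KLF9 differed by -1.34 after 2 h, -0.68 after 4 h and -1.09 after 8 h. For KLF4 and KLF9, the fitted change was upward in Ishikawa and downward in T-47D cells at each of these times. Within the lines, KLF9 at 4 h and 8 h in Ishikawa cells was not called, nor were KLF4 and KLF9 at 2 h in T-47D cells. The KLF9 difference between lines at 4 h was not called with the replicate block. The groups had 2 libraries each, too few to look for a library standing apart within a group.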

How the results depend on the processing

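Over all alternatives other than leaving out a library, 656 of 675 KLF values (all against 0 h and between the lines at 0 h, and elsewhere those called and those of KLF10 outside Ishikawa cells) kept their direction and their side of the threshold, 10 lost a call, 7 gained one and 2 changed sign. The sign changes were of values near 0, KLF3 at 4 h in Ishikawa cells (-0.00094 with 4 h and 8 h as 1 group) and KLF13 at 4 h in T-47D cells (-0.00015 with only the time points compared). With 4 h and 8 h as 1 group, the later Ishikawa libraries gave 5 KLFs called against 0 h in place of 4 at 4 h and 3 at 8 h, and 4 against 2 h (KLF5, KLF6, KLF9 and KLF13) in place of 2 at 4 h and 3 at 8 h. At an adjusted p under 0.01, 1 KLF was called between 4 h and 2 h and 0 between 8 h and 2 h in Ishikawa cells. Without a filter, 1 KLF was called between 8 h and 4 h in T-47D cells (KLF6, 0.17, adjusted p = 0.0408). With its longest transcript, KLF10 stood at 35.6 and 5.01 CPM per kb in Ishikawa and T-47D cells. By Spearman correlation, 3 of the 5 genes most like KLF10 were shared (RUNX1, CHSY1 and PFKFB3). The cause of these shifts was not tested, beyond the construction of each alternative. DESeq2 gave no adjusted p for KLF2 in T-47D cells between 4 h and 2 h and between 8 h and 4 h.

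Same-numbered libraries did not deviate together, with correlations of their deviations from -0.11 to 0.053 over 6 pairs in Ishikawa and -0.055 to 0.060 over 6 pairs in T-47D cells. These values show no shared deviation, but they cannot say whether same-numbered libraries came from a shared culture or batch. Against 0 h, the replicate block gave the same counts of KLFs as the fit without it, 5, 4 and 3 in Ishikawa and 3, 5 and 4 in T-47D cells. It lost KLF6 between 8 h and 2 h in Ishikawa cells (0.30, adjusted p = 0.0525), which left 2 KLFs, and the KLF9 difference between lines at 4 h (-0.68, adjusted p = 0.0721), which left 3.

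Leaving out 1 library, which leaves 1 library in a group and assumes that it varies like the others, kept 384 of 440 KLF values, lost 32 calls, gained 3 and changed 21 signs. The KLFs called in Ishikawa cells ranged from 0 to 2 between 4 h and 2 h and from 0 to 2 between 8 h and 2 h. KLF10 at 8 h in Ishikawa cells ranged from 0.013 to 0.29. Signs changed only for values that had not been called: KLF10 between 8 h and 2 h in T-47D cells (-0.040 to 0.093), KLF11 in T-47D cells at 2 h (-0.067 to 0.032) and 4 h (-0.097 to 0.0012) and between lines at 0 h (-0.098 to 0.0095), KLF13 at 4 h in T-47D cells (-0.066 to 0.078), KLF16 at 2 h in Ishikawa cells (-0.11 to 0.073) and at 2 h (-0.072 to 0.053) and 4 h (-0.0100 to 0.11) in T-47D cells, KLF3 at 2 h (-0.12 to 0.036), 4 h (-0.037 to 0.12) and 8 h (-0.11 to 0.042) in Ishikawa cells, KLF5 at 4 h (-0.30 to 0.085) and 8 h (-0.20 to 0.18) in T-47D cells, and KLF6 at 8 h in T-47D cells (-0.042 to 0.017).

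With 2 libraries a group, changes of the KLFs with low counts are the least precise. In T-47D cells the SEs of the change from 0 h to 2 h were 0.30 for KLF2, 0.15 for KLF5 and 0.11 for KLF9, and in Ishikawa cells 0.21 for KLF2 and 0.16 for KLF4 and KLF9, against 0.053 for KLF13 in Ishikawa and 0.054 for KLF6 in T-47D cells.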
